A study of Mus musculus with 60 samples.

Results

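The question was whether loss of Glo1 changed the same genes by the same amount in the prefrontal cortex, the striatum and the hippocampus of the mouse. It was put to all 60 of the 60 mRNA libraries of the series, which came from 20 mice with 1 library of each region per mouse. The members were thus chosen by design and not by a measured value: the quantity tested for each gene was the difference between KO and WT mice in the prefrontal cortex (Pfc) minus the same difference in the striatum (Str) or in the hippocampus (Hip). There were 10 Glo1 knockout (KO) and 10 wild-type (WT) mice, and within each genotype 5 mice ate a normal diet with 1.4 mg vitamin B6 (VB6) per 100 g of pellets and 5 ate a VB6-lacking diet with 5 µg per 100 g, both from 8 to 12 weeks of age. The VB6 level given in the labels, whose material they do not name, was 58.3 to 78.1 ng/µl on the normal and 2.25 to 5.63 ng/µl on the lacking diet. The genetic background, the sex and the construction of the Glo1 allele are not given in the sources used here. Values below are over both diets unless a diet is named.

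Glo1 encodes glyoxalase I, which uses glutathione to turn methylglyoxal, a reactive by-product of glycolysis, into a precursor of lactate. Methylglyoxal attacks arginine and lysine residues of proteins, and the enzyme is expressed throughout the brain. Vitamin B6 supplies pyridoxal phosphate, the cofactor of the enzymes that make GABA, dopamine and serotonin, and its amine form can scavenge reactive carbonyls. An effect of genotype that differs between regions is a genotype by region interaction; since the 3 regions came from the same animals, each mouse served as its own reference.

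Glo1 itself was first measured in every library. In WT mice its lowest, median and highest levels were 35.5, 39.4 and 47.5 CPM (reads of the gene scaled to library size) in the Pfc, 33.3, 37.7 and 49.0 CPM in the Str and 45.6, 53.6 and 76.9 CPM in the Hip. In KO mice the corresponding values were 0, 0.425 and 0.698 CPM in the Pfc, 0.177, 0.428 and 1.09 CPM in the Str and 0, 0.317 and 0.953 CPM in the Hip. No KO library reached the lowest WT library, so the genotype labels and the Glo1 reads went together in all 60 libraries. KO against WT gave a log2 fold change of -6.69 (SE 0.166) in the Pfc, -6.38 (SE 0.155) in the Str and -7.25 (SE 0.182) in the Hip. These did not differ past the threshold between regions (joint interaction test in edgeR, adjusted p = 0.625), and with 39 to 47 reads left per region over 10 KO libraries a difference between such large effects rests on few counts.

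Library totals lay between 7640047 and 13928265 counts, so that 3 counts corresponded to 0.215 to 0.393 CPM. In the Pfc the totals were 8704715 to 11485734 in WT and 9578705 to 13911503 in KO mice. RNA integrity numbers differed between regions of a mouse by nearly the same amount in both genotypes (KO minus WT of 0.05 for Pfc against Str, 0.01 for Pfc against Hip and -0.04 for Str against Hip). The tissue labels went with their markers: the summed level of 14 medium spiny neuron markers was at least 10970 CPM in the Str and at most 485 CPM elsewhere, 14 cortical projection neuron markers were highest in the Pfc (4229 to 4950 CPM), and 15 hippocampal neuron markers highest in the Hip (2243 to 2912 CPM). Per the labels all KO libraries were batch 1 and all WT libraries batch 2, so batch and genotype cannot be told apart, and no batch holds both genotypes for a within-batch value. A batch effect that is equal in the 3 regions cancels in the interaction, whereas 1 that differs between regions does not.

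WT mice 241 (lacking diet) and 317 (normal diet) stood apart from the other WT mice. At 15 genes besides Glo1 that passed the test of KO against WT in every region, all on chromosome 17, which also carries Glo1, each library was placed on a scale from the WT median (0) to the KO median (1). The median positions of these 2 mice, the lower given first, were 0.415 and 0.462 in the Pfc, 0.174 and 0.478 in the Str and 0.388 and 0.438 in the Hip. The other 8 WT mice lay between -0.204 and 0.0803 and the 10 KO mice between 0.818 and 1.1 over the 3 regions. Because the genes were chosen by KO against WT in the same libraries, the distance between these groups carries no test. The Glo1 levels of mice 241 and 317 were those of WT mice, at 47.5 and 44.5 CPM in the Pfc, in that order. Counts are therefore given with and without these mice.

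**Figure D1:**
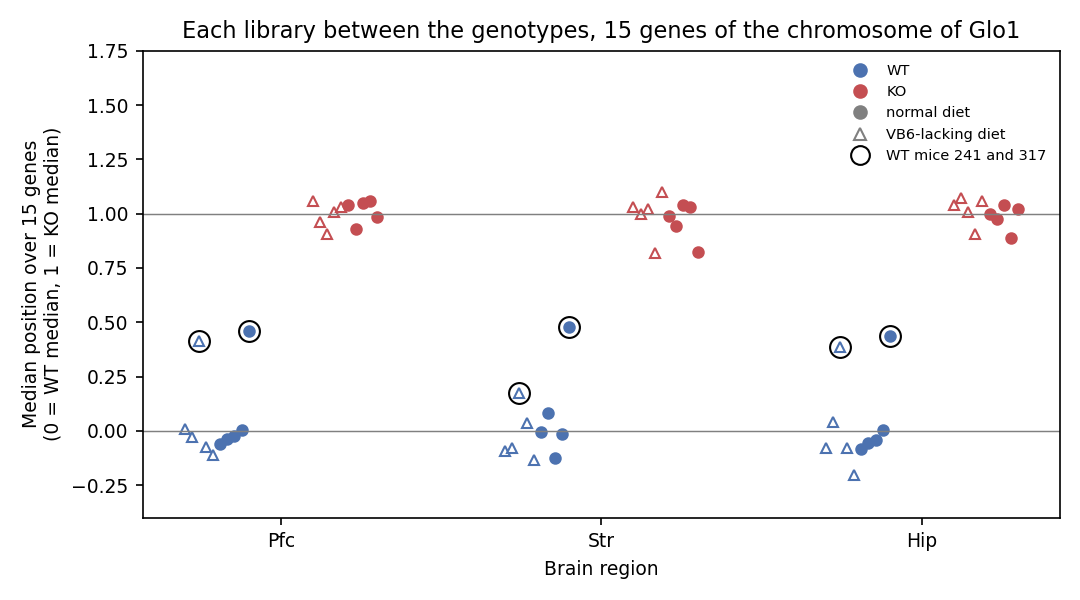
Median position of each library over 15 genes of chromosome 17 that passed KO against WT in every region. On this scale 0 is the WT median and 1 the KO median of the region. Each point is 1 library (circles, normal diet; open triangles, lacking diet); the ringed WT mice 241 and 317 lie between 0.174 and 0.478, above every other WT library and below every KO library.

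Few genes had a KO effect that differed between regions past the threshold. Of 13930 genes tested with edgeR, 2 passed the joint test that asks for any difference among the 3 regions (0.0144%; Benjamini-Hochberg adjusted p under 0.05), namely Fndc1 and Enpp5. For Pfc against Str 0 genes passed (0%; 1368 genes at an unadjusted p under 0.05; 2 genes each by DESeq2 and by limma-voom). For Pfc against Hip Fndc1 alone passed (0.00718%; 938 genes at an unadjusted p under 0.05), and for Str against Hip 0 genes passed (0%; 942 genes at an unadjusted p under 0.05; 2 genes each by DESeq2 and by limma-voom). Without WT mice 241 and 317 the 4 counts were 3, 1, 1 and 1. Enpp5 was then not among the 3 genes of the joint test, which were Fndc1, Ccr6 and Prss41.

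Fndc1, a gene for an extracellular protein with fibronectin type III domains, was higher in KO mice in the Pfc and the Str and not in the Hip. It lies on chromosome 17 at 7738569 to 7827340 (mm10), 22.8 Mb from Glo1, and shared none of its 9960 exonic stretches of read length with another gene. In the Pfc the lowest, median and highest levels were 1.20, 1.96 and 3.06 CPM in WT and 2.99, 4.84 and 7.28 CPM in KO mice. Only the highest WT library, of mouse 283, exceeded the lowest KO library, of mouse 244. In the Str they were 6.23, 8.79 and 14.8 CPM in WT and 11.3, 16.95 and 24.8 CPM in KO mice. The WT libraries within the KO range there were those of mice 241 (14.8 CPM) and 317 (14.5 CPM), and the next highest WT library had 10.6 CPM. In the Hip the levels were 4.93, 6.61 and 8.71 CPM in WT and 5.10, 6.67 and 7.96 CPM in KO mice, and the genotypes overlapped over nearly their whole range.

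The KO effect on Fndc1 was a log2 fold change of 1.28 (SE 0.176, edgeR adjusted p = 4.66e-05) in the Pfc, 0.88 (SE 0.154, adjusted p = 0.0036) in the Str and -0.01 (SE 0.113, adjusted p = 1) in the Hip, with 10 mice per genotype. The effect in the Pfc exceeded that in the Hip by 1.29 on the log2 scale (95% confidence interval 0.84 to 1.74, edgeR adjusted p = 0.00917). The Str exceeded the Hip by 0.93 (0.54 to 1.31), which did not pass (adjusted p = 0.125), and the Pfc differed from the Str by 0.36 (-0.07 to 0.79, adjusted p = 0.543; -0.16 with limma on log2(RPKM + 1)). Within single mice, the Pfc minus Hip difference in log2 CPM averaged -1.67 ± 0.497 (SD, n = 10) in WT and -0.45 ± 0.37 in KO mice. The Pfc thus lay further below the Hip in WT than in KO mice, and WT mouse 283 (-0.66) was the only WT mouse inside the KO range. The gap between genotypes was of like size on both diets, 1.16 on the normal and 1.27 on the lacking diet.

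The joint adjusted p of Fndc1, 0.0114, rose to 0.0561 without KO mouse 242, to 0.215 with the mouse as a random effect in limma-voom, to 0.105 with limma on log2(RPKM + 1), where the Pfc against Hip difference was 0.31 on that scale (adjusted p = 0.511), and to 0.0942 with the summed level of 20 myelin markers as a covariate, where the Pfc against Hip difference was 1.21. Without WT mice 241 and 317 the Str against Hip difference was 1.14 and passed (adjusted p = 0.00574).

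**Figure D2:**
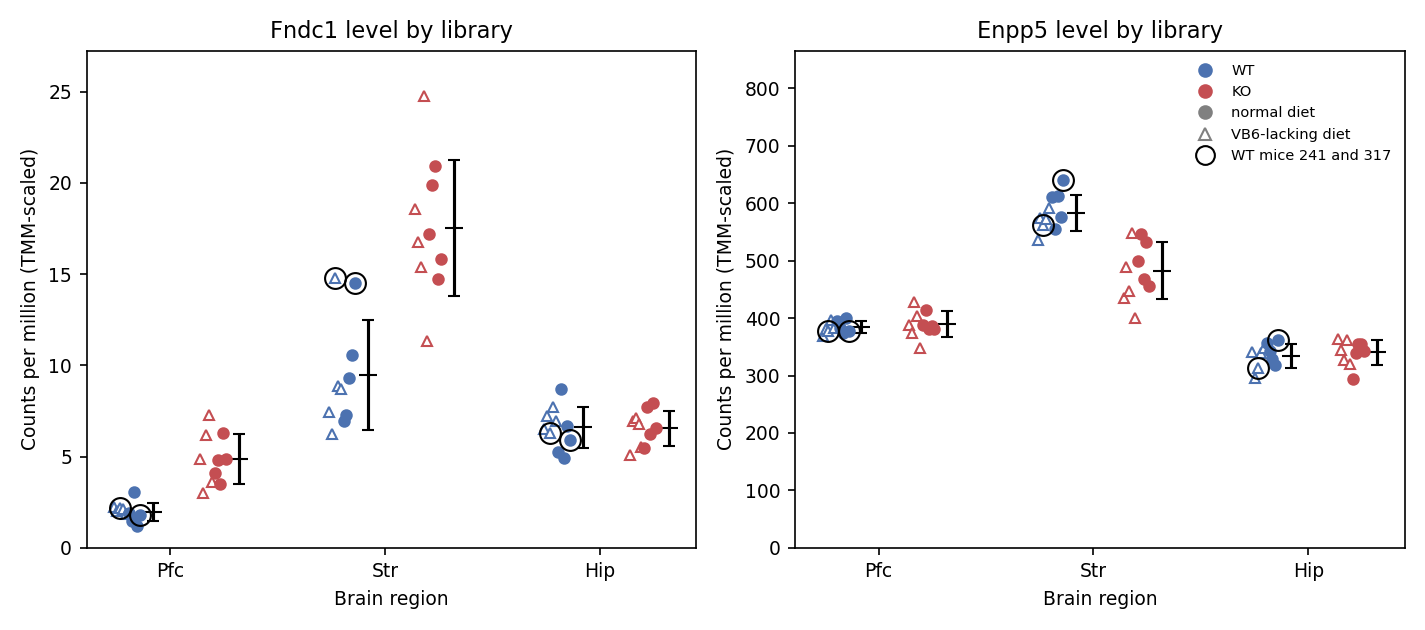
Level of Fndc1 (left) and Enpp5 (right) in every library, in TMM-scaled CPM, by region and genotype. Points are libraries, bars are mean ± SD of 10 mice, and rings mark WT mice 241 and 317: Fndc1 is higher in KO in Pfc and Str, and Enpp5 is lower in KO in Str only among the 3 regions.

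Enpp5, a member of the ectonucleotide pyrophosphatase/phosphodiesterase family of membrane glycoproteins, was lower in KO mice in the Str, with no such difference in the Pfc or Hip. It lies on chromosome 17 at 44078802 to 44086567, 13.5 Mb from Glo1 on the other side from Fndc1, and shared none of its 4984 exonic stretches with another gene. In the Str the lowest, median and highest levels were 536, 576 and 641 CPM in WT and 401, 479 and 548 CPM in KO mice; 2 KO libraries, of mice 268 and 339, lay within the WT range. In the Pfc they were 368, 382 and 401 CPM in WT and 348, 387 and 428 CPM in KO mice. In the Hip they were 295, 340 and 363 CPM in WT and 294, 344 and 364 CPM in KO mice, so that the genotypes overlapped in both regions.

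The KO effect on Enpp5 was a log2 fold change of -0.28 in the Str (SE 0.053, edgeR adjusted p = 0.00847), 0.01 in the Pfc (SE 0.0384, adjusted p = 0.91) and 0.03 in the Hip (SE 0.0481, adjusted p = 1). The Pfc exceeded the Str by 0.30 on the log2 scale (0.18 to 0.41, adjusted p = 0.0724), and the Str fell below the Hip by an equal amount (-0.30, -0.42 to -0.19, adjusted p = 0.0507). Each pairwise value missed the threshold narrowly, while the joint test passed (adjusted p = 0.0114). The Pfc and Hip effects differed by -0.01 (-0.12 to 0.11). Within single mice the Pfc minus Str difference ran from -0.761 to -0.522 in WT (median -0.582) and from -0.462 to -0.0637 in KO mice (median -0.333), and the genotypes did not overlap. Enpp5 was the only gene of 13930 with separated ranges for this pair of regions (0.00718%). For Str minus Hip the WT mice ran from 0.655 to 0.962 and the KO mice from 0.26 to 0.763.

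The gap of Enpp5 between genotypes in Pfc minus Str was 0.275 on the normal and 0.318 on the lacking diet. The joint call was lost without KO mouse 242, 390 or 452 (adjusted p = 0.0584, 0.068 and 0.0607), without WT mice 241 and 317 (0.0627) and with the myelin marker covariate (0.0669), while the Pfc against Str difference stayed between 0.27 and 0.33 whichever single mouse was left out.

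**Figure D3:**
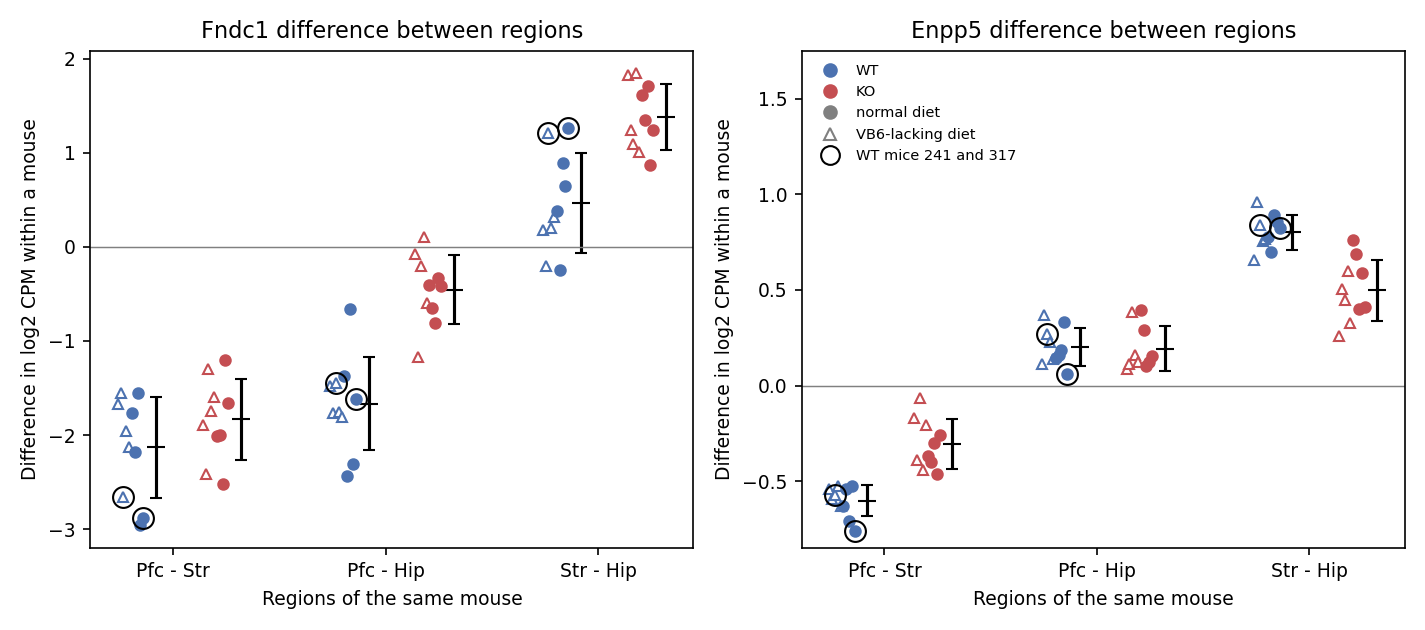
Difference in log2 CPM between 2 regions of the same mouse for Fndc1 (left) and Enpp5 (right), by genotype; points are mice, bars are mean ± SD of 10 mice and rings mark WT mice 241 and 317. For Fndc1 the genotypes part most in Pfc - Hip; for Enpp5 they part without overlap in Pfc - Str, where KO mice lie above -0.462 and WT mice below -0.522.

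The genes next in order of p did not pass, and are given as values. Ccr6, the receptor of the chemokine CCL20, had 4 reads in all 10 WT Pfc libraries together, 8 of which had 0, and 75 reads in the 10 KO Pfc libraries (0.433 to 0.91 CPM). Those 4 reads were in WT mice 241 and 317. In the Str both genotypes had 95 reads, and the levels overlapped (0.609 to 1.16 CPM in WT, 0.369 to 1.64 CPM in KO mice). In the Hip WT libraries had 18 and KO libraries 85 reads. The joint adjusted p was 0.129, and it passed in DESeq2 and in limma-voom; with WT libraries at 0 its fitted fold change depends on the prior count and is not given.

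Slc22a3, which encodes the organic cation transporter 3 that takes up monoamines, passed the test of KO against WT in the Str. Its levels there were 8.28, 12.3 and 17.95 CPM in WT and 18.6, 22.8 and 30.2 CPM in KO mice, with no overlap. In the Pfc they were 1.08, 1.80 and 2.17 CPM in WT and 0.0866, 1.42 and 2.39 CPM in KO mice, and in the Hip no library exceeded 1.40 CPM. The KO effect was 0.93 (SE 0.101) in the Str and -0.35 (SE 0.268) in the Pfc, a difference of -1.34 on the log2 scale (-1.95 to -0.74, edgeR adjusted p = 0.167). Zfp760, a zinc finger gene, passed KO against WT in all 3 regions, with a log2 fold change of 0.98 in the Str, 0.45 in the Pfc and 0.53 in the Hip; the Pfc fell short of the Str by 0.53 (adjusted p = 0.169).

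Pla2g7, the secreted enzyme that inactivates platelet-activating factor, was lower in KO mice in the Pfc and the Str. Its log2 fold change was -0.51 (SE 0.0555) in the Pfc, -0.32 (SE 0.0495) in the Str and -0.23 (SE 0.0575) in the Hip, where it did not pass (adjusted p = 0.22). Pla2g7 levels in the Pfc were 116 to 149 CPM in WT and 81.8 to 106 CPM in KO mice, without overlap; the Pfc against Hip difference was -0.28 (-0.40 to -0.16, edgeR adjusted p = 0.192). H2-T22, a class I MHC gene of the T region, fell by 1.36 on the log2 scale in the Pfc, by 0.87 in the Str, and had -0.60 in the Hip, where it did not pass (edgeR adjusted p = 0.256). Of its exonic stretches 40% are shared with a transcript on the other strand, and whether reads were counted by strand is not given, so its values are uncertain. Mllt4 (current symbol Afdn), which encodes the junction protein afadin, had 0.19 in the Pfc, which passed, 0.11 in the Str and -0.05 in the Hip.

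Other genes of this group had KO effects of opposite sign between regions, none past the threshold in any single region. Trim66, a tripartite motif protein that binds chromatin, had 0.25 in the Pfc, -0.24 in the Str and -0.01 in the Hip (Pfc against Str difference 0.50, edgeR adjusted p = 0.167). Mdga1, a membrane protein that binds neuroligins at synapses, had -0.10 in the Pfc, -0.50 in the Str and 0.26 in the Hip (Str against Hip difference -0.78, adjusted p = 0.467). Gp1bb, a platelet glycoprotein gene, had -0.51 in the Pfc, -0.17 in the Str and 0.45 in the Hip. Smco3 had -0.42 in the Pfc and -0.35 in the Hip against 0.08 in the Str, and its Pfc and Hip values differed by -0.07 (-0.29 to 0.15). Reads of these last genes cannot be told from those of an overlapping gene, since 89.5% of the exonic stretches of Gp1bb are shared with Sept5 and 92% of those of Smco3 with BC049715. For Pfc minus Hip and for Str minus Hip the mice of the genotypes were separated at 1 gene each (0.00718% in both cases), Det1 and Sstr5, whose joint adjusted p was 0.625. Both were named after their values were seen; Sstr5, a somatostatin receptor gene of chromosome 17, passed KO against WT in the Str with a log2 fold change of 2.43 (SE 0.405, edgeR adjusted p = 0.00206) and was below the count filter in the other regions.

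**Figure D4:**
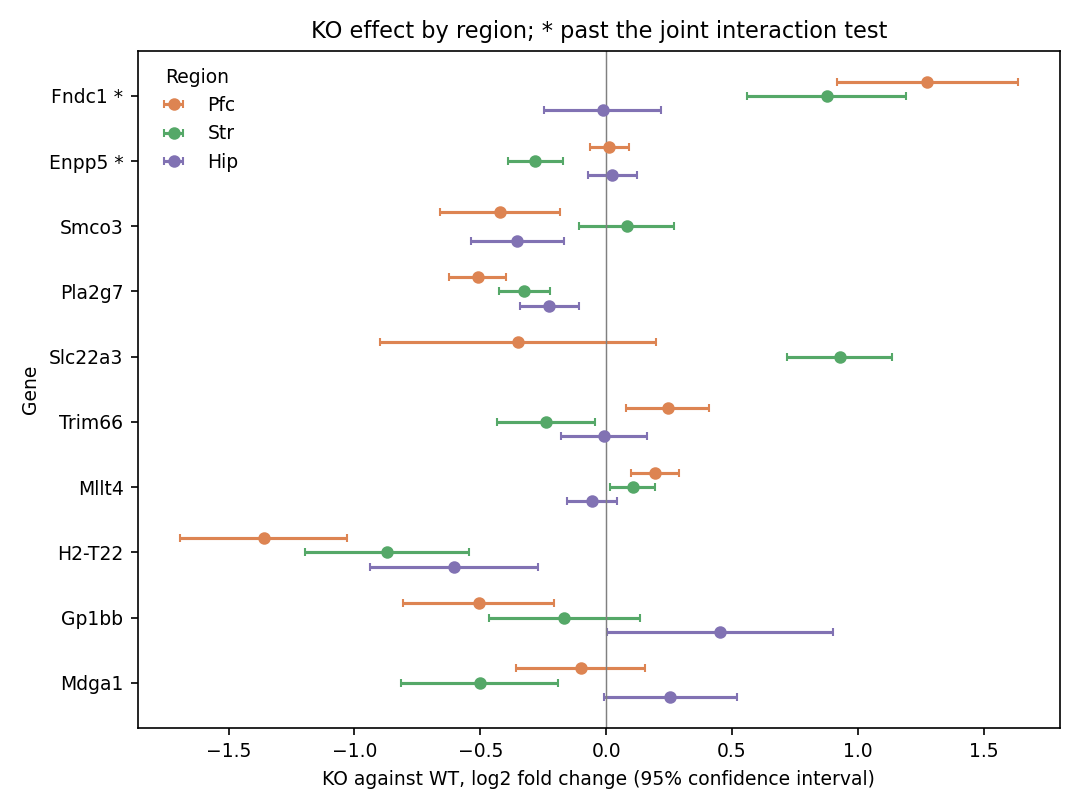
Log2 fold change of KO against WT in each region, with 95% confidence intervals, for 10 of the genes that the interaction tests ranked first (10 KO and 10 WT mice per region). Fndc1 and Enpp5 passed the joint test; Slc22a3 was not tested in the Hip, where its counts were below the filter.

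Against these few differences stand the KO effects that each region showed by itself. In edgeR, 95 of 13223 genes passed in the Pfc (0.718%; 17 higher and 78 lower in KO), 28 of 13311 in the Str (0.21%; 10 higher and 18 lower) and 21 of 13393 in the Hip (0.157%; 6 higher and 15 lower). In total 103 genes passed in at least 1 region and 16 passed in all 3. None of those 16 passed the joint interaction test, which 0.0144% of all genes passed, so little is read from that. Atp6v0c, the proton channel subunit of the vacuolar ATPase, fell by 2.83 in the Pfc, 2.67 in the Str and 3.25 in the Hip on the log2 scale (joint adjusted p = 0.667). Decr2, a peroxisomal reductase of unsaturated fatty acid breakdown, fell by 0.58, 0.74 and 0.54 (joint adjusted p = 0.625), and Ppil1, a prolyl isomerase of the spliceosome, by 1.28, 1.16 and 0.83. Zfp758 fell by 0.91, 0.75 and 0.77 and Gnptg, a subunit of the enzyme that tags lysosomal proteins, by 0.50, 0.62 and 0.45; 46.2% of the stretches of Gnptg are shared with Unkl. Zfp40 fell by 0.92 in the Pfc and 0.49 in the Hip, and had -0.52 in the Str, where it did not pass (adjusted p = 0.111).

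More genes passed in the Pfc than elsewhere, and these were not shown to differ between regions. Of the 95 Pfc genes 73 passed in the Pfc alone. The joint interaction test (edgeR) was passed by 0 of the 73 and by 0.0144% of all genes, so the 0 says little about them. An unadjusted joint p under 0.05 was found for 47 of the 73, against 7.49% of all genes. They were picked on the Pfc libraries that also enter the interaction, so nothing is read from that share. Examples away from chromosome 17 are Sparc, a matricellular collagen-binding protein, with log2 fold changes of -0.43 in the Pfc, -0.20 in the Str and -0.10 in the Hip, Slc1a3, the astrocytic glutamate transporter GLAST, with -0.33, -0.04 and -0.06, and Fam107a with -0.35, -0.21 and -0.11. Sparc had 127 to 166 CPM in the Pfc of WT and 94.2 to 126 CPM in the Pfc of KO mice. The ribosomal protein genes Rpl38 (-0.48, -0.02 and 0.03), Rpl39 (-0.86, 0.18 and -0.11) and Rpl13 (-0.80, -0.02 and -0.02) were also lower in the Pfc alone by the test, and 23.1% of the stretches of Rpl38 and 21.6% of those of Rpl13 are shared with other genes. Papss2, which makes the sulfate donor, had -0.43, -0.13 and -0.10, Serpine2, a protease inhibitor, had -0.25, -0.01 and -0.08, and Lrrtm1, a synaptic adhesion protein, had -0.37, 0.13 and -0.09. The deubiquitinase gene Usp21 had -0.42, 0.04 and -0.02. The joint adjusted p of Sparc, Slc1a3 and Rpl38 was 0.625 and that of Fam107a 0.592.

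The Pfc count moved with single mice. It was 42 without WT mice 241 and 317, of which 40 were among the 95. It was 48 to 61 without WT mouse 225, 259, 272 or 317 or KO mouse 339, 368, 381 or 390, and 162 to 308 without WT mouse 226 or 283 or KO mouse 267 or 268. Leaving out any 1 mouse gave 27 to 33 genes in the Str and 17 to 30 in the Hip. Without WT mice 241 and 317 these regions had 33 and 25 genes.

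The genes with the smallest interaction p lay on the chromosome of Glo1 more often than tested genes as a whole. Of 13896 tested genes with a position 645 (4.64%) are on chromosome 17, whereas 12 of the 26 genes with an unadjusted joint p under 0.001 (46.2%) are. All 12 lie within 25 Mb of Glo1, between 22.8 Mb on its proximal and 13.5 Mb on its distal side. Chromosome 17 also held 38 of the 95 genes called in the Pfc, all 28 called in the Str and 20 of the 21 called in the Hip, Mal being the exception. Of 4 genes called in the Str alone, all on chromosome 17, 1 passed the joint interaction test, Enpp5. These shares are a description of the same libraries and carry no test of their own.

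**Figure D5:**
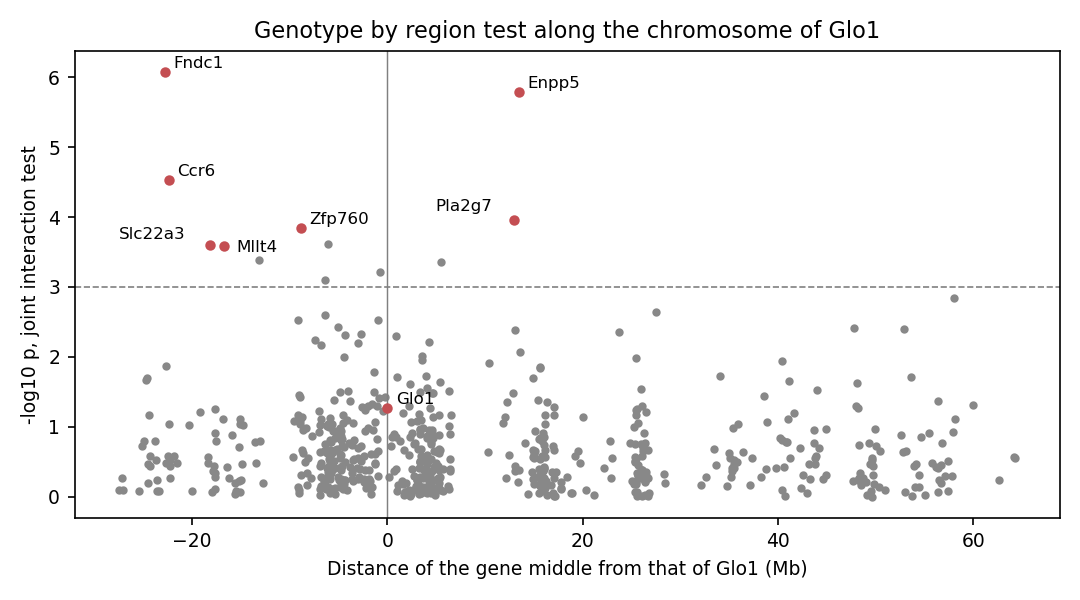
Unadjusted p of the joint genotype by region test (as -log10) for 645 genes of chromosome 17 against the distance of the gene from Glo1 in Mb; the dashed line is p of 0.001. The 12 genes above the line lie within 25 Mb of Glo1, with Fndc1 and Enpp5 highest on opposite sides of it.

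No gene list of a pathway or cell type held a gene that passed the joint interaction test (0 of 399 listed genes, edgeR). Of all 13930 genes tested 0.0144% passed it. At that share lists of this size would mostly hold none, so nothing is read from the 0, here or for single lists below. At an unadjusted p under 0.05 were 41 of the 399 genes (10.3%), against 7.49% of all genes. Among 13 enzymes that clear methylglyoxal and glyoxal, Glo1 alone passed KO against WT, in every region. The members with an unadjusted joint p under 0.05 were Aldh3a2, a fatty aldehyde dehydrogenase, with KO effects of 0.17, -0.05 and -0.06 in Pfc, Str and Hip, the aldehyde reductase Akr1a1 with 0.16, -0.14 and 0.15, and the glyoxalase II-like gene Haghl with 0.42, -0.04 and 0.02. The 6 genes of vitamin B6 salvage and transport and the 25 heat shock and chaperone genes had none under 0.05. Of 21 enzymes of GABA and serine metabolism and others that use pyridoxal phosphate 2 were, Psph, which makes serine, and Odc1, which makes putrescine.

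Of 37 complex I subunits 7 (18.9%, against 7.49% of all genes) had an unadjusted joint p under 0.05 and 0 passed the joint test in edgeR; their median difference of KO effects was 0.0551 for Pfc against Str and -0.122 for Str against Hip, where the medians of all genes were -0.00264 and 0.00566. Ndufa1 had KO effects of 0.04, -0.12 and 0.29 and Ndufb11 of 0.26, -0.11 and -0.06. Ndufb10 and Ndufc2 passed KO against WT in the Pfc, with -0.29 and -0.40. Of 39 subunits of complexes II to V 4 (10.3%) were under 0.05, and the medians were 0.0594 and -0.102; Cox6c, which passed KO against WT in the Pfc, had -0.43, 0.10 and 0.07. Of 18 vacuolar ATPase subunits Atp6v1f alone was under 0.05 (-0.38, -0.25 and 0.05). Among 27 glutathione and antioxidant genes Gsto1, an omega-class glutathione transferase, had -0.14, -0.06 and 0.28 (joint adjusted p = 0.625), and catalase (Cat) passed in the Pfc with -0.36. None of 22 immediate early genes was under 0.05.

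Markers of cell types followed the regions unequally, and in bulk tissue fewer cells of a type and less RNA per cell cannot be told apart. Of 16 astrocyte markers 6 (37.5%, against 7.49% of all genes) had an unadjusted joint p under 0.05 in edgeR, and 0 passed. All 6 were lower in KO in the Pfc relative to the Str, namely Slc4a4, Slc1a3, Glul, Aqp4, Slc1a2 and Gja1. Gfap, which was not under 0.05, went the other way, with KO effects of -0.11 in the Pfc and -0.23 in the Str. The summed level of the list in the Pfc was 13120 to 16930 CPM in WT and 12270 to 15050 CPM in KO mice, while in the Str and the Hip the ranges overlapped almost fully (11720 to 14190 against 11780 to 14380 CPM, and 13670 to 16630 against 13450 to 15430 CPM). Of 20 oligodendrocyte and myelin markers 5 (25%) were under 0.05, Aspa, Cnp, Ermn, Ugt8a and Mal, with KO effects in the Hip of -0.34, -0.37, -0.33, -0.29 and -0.49. In the Str Cnp had -0.20 and Aspa 0.14, and Mbp had -0.16 in both the Str and the Hip. The summed level of the 20 markers in the Hip was 5653 to 8339 CPM (median 6980) in WT and 4497 to 7798 CPM (median 5251) in KO mice. Median differences of KO effects over this list were 0.204 for Pfc against Hip and 0.151 for Str against Hip, where those of all genes were 0.0013 and 0.00566. Glul and Slc1a3 passed KO against WT in the Pfc and Mal in the Hip, all lower. The part of these marker levels in the results was not tested beyond the covariate given for Fndc1 and Enpp5.

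Of 15 interneuron markers 4 (26.7%, against 7.49% of all genes) had an unadjusted joint p under 0.05 in edgeR. Among them were Sst (0.17 in the Pfc, -0.21 in the Str and 0.24 in the Hip) and Nos1, which passed KO against WT in the Pfc (-0.25). Drd2, the dopamine D2 receptor of medium spiny neurons, had the smallest joint p of all list genes (0.000426, edgeR adjusted p = 0.388). Its KO effect was 0.98 in the Pfc, where the levels were 0.39 to 1.29 CPM in WT and 0.698 to 2.51 CPM in KO mice, against medians of 197 and 191 CPM in the Str. Of 9 thalamic markers Rora and Calb2 were under 0.05, of 15 endothelial and mural markers Rgs5, of 12 meningeal and blood markers Dcn, of 15 hippocampal neuron markers Calb2 and of 14 genes of class I antigen presentation H2-T22. In that last list B2m, the light chain of class I molecules, passed KO against WT in the Pfc (-0.44), and H2-T24 in the Str (0.84) and the Hip (1.03). Calb2 was counted in each list that holds it, with KO effects of -0.19 in the Pfc, -0.15 in the Str and 0.23 in the Hip. The markers of cortical projection neurons (14 genes), microglia (16 genes) and of choroid plexus and ependyma (13 genes) had none under 0.05. The microglial purinergic receptor gene P2ry12 passed KO against WT in the Pfc (-0.38, edgeR adjusted p = 0.0177), with -0.01 in the Str and -0.14 in the Hip and a joint adjusted p of 0.625. Of other microglial genes, C1qa had 0.32 in the Pfc, -0.28 in the Str and 0.08 in the Hip. Cx3cr1 had -0.18, -0.19 and -0.05, and neither gene passed in any region. The summed level of the microglia list in the Pfc was 550 to 622 CPM in WT and 469 to 573 CPM in KO mice. Its median was lower in KO mice in every region. It was 594.5 CPM in WT and 553.3 CPM in KO in the Pfc. In the Str it was 685.5 and 647.4 CPM, and in the Hip 532.6 and 518.5 CPM, in that order. The choroid plexus sum varied widely among Hip libraries of both genotypes, from 47.6 to 1475 CPM in WT and from 41.8 to 1819 CPM in KO mice, and with it as a covariate Fndc1 and Enpp5 passed the joint test.

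The difference of KO effects between regions was not found to depend on the diet. In the test of genotype by region by diet 0 of 13930 genes passed in edgeR (0%; 406 genes at an unadjusted p under 0.05, smallest adjusted p 0.99), and DESeq2 and limma-voom gave 0 as well. The test of each diet alone, with 5 mice per genotype, gave 0 genes in the joint interaction test on either diet. The precision differed between genes: the 95% confidence interval of a difference of KO effects had a median half-width of 0.265 on the log2 scale for Pfc against Str, of 1.07 for genes under 1 CPM and of 0.162 for genes over 100 CPM.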

How the data were processed

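Per the labels, poly(A) RNA of the 3 regions of 20 mice was sequenced as 75-base single reads; nothing says whether the mice were littermates. The authors deposited 1 table of raw read counts per gene and 1 of RPKM for 60 libraries. The submitters' processing notes name STAR 2.7.1a, HTSeq 0.9.1 and mm10; the annotation and the strand setting are not given in the sources used here. Deposited RPKM equalled count over a whole-number length and the library total for 18514 of 18514 genes with a count (relative tolerance 1e-06), so RPKM served only as an alternative.

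Counts were tested with edgeR 4.0.16 (R 4.3.3; quasi-likelihood test, TMM scaling, filterByExpr with a minimum count of 10 and total of 15). The interaction fit had the mouse as a block, region, region by diet and region by genotype; KO against WT within a region was fitted on its 20 libraries with diet as a covariate. P-values were adjusted over all genes tested (Benjamini-Hochberg, 0.05). The SE of KO against WT was derived from the log2 fold change and the F statistic of the quasi-likelihood test. Its interval was built from that SE. CPM are TMM-scaled; differences within a mouse are in log2 CPM with a prior count of 2. The mouse number pairs libraries because they are from the same animal. Residuals of the same mouse correlated across genes at a mean of 0.0468 (-0.333 to 0.335). Those of different mice of a group correlated at a mean of -0.0111 (-0.375 to 0.367). The ranges are nearly alike, so the pairing rests on the labels. No 2 libraries of a group agreed within sampling noise. Named genes are Glo1, up to 15 genes past each interaction test (where fewer than 5 pass, the 5 of smallest p), up to 10 genes each on and off chromosome 17 by KO against WT, and for each list the genes past the test, else the 2 of smallest joint p and the first member. The genes, the lists and the tests were chosen with earlier results of these data known. Other list members with an unadjusted joint p under 0.05, or past KO against WT, were named after their values were seen. Some genes that the rule names are not reported here. Positions are of RefSeq (for 980 genes of GENCODE) on GRCm38 (mm10), found for 21892 of 21999 genes. Shared stretches are 75-base windows of GENCODE transcripts that occur in another gene on either strand. The edgeR fit was tested on simulated counts. Alternatives were limma 3.58.1, DESeq2 1.42.0, other filters, scaling and covariates, and leaving out each mouse. Intervals are for a mean effect, with the variation between these mice as its error, and do not give the range of single mice.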

Additional observations from a re-analysis of the deposited data

Results flagged for a closer look

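The KO effect differed between regions for Fndc1 and for Enpp5 (joint test, edgeR adjusted p = 0.0114 for each; 10 mice per genotype). Single libraries lay apart from the other 4 of their group, by a gap over 0.71 of the range of the group, in 13 of 192 groups of 5 examined over 13 genes and 3 marker sums; chance flags about 1 in 20.

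For Glo1 these were KO mouse 268 in the Pfc on the normal diet (0 CPM against 0.388 to 0.531, gap 0.73 of the range), WT mouse 286 in the Str on the normal diet (45.6 against 34.8 to 37.3 CPM, 0.771) and WT mouse 226 in the Hip on the lacking diet (76.9 against 45.6 to 54.0 CPM, 0.732). Enpp5 was high in the Pfc of KO mouse 268 (415 against 380 to 387 CPM, 0.801) and low in the Hip of KO mouse 267 (294 against 339 to 354 CPM, 0.743), both on the normal diet. Ccr6 had reads in WT mouse 317 alone of its Pfc group and in WT mouse 241 alone of its Pfc and Hip groups (0.0903, 0.362 and 0.273 CPM against 0 in the others, gap 1). Slc22a3 was low in the Pfc of WT mouse 317 (1.08 against 1.755 to 1.876 CPM, 0.847), Trim66 high in the Hip of WT mouse 225 (17.7 against 11.2 to 12.7 CPM, 0.77) and Gp1bb high in the Str of WT mouse 283 (7.75 against 4.77 to 5.64 CPM, 0.711). The choroid plexus and ependyma sum was high in the Hip of KO mouse 267 (1819 against 63.2 to 531 CPM, 0.733), and the astrocyte sum was low in the Pfc of WT mouse 226 (13120 against 15160 to 15960 CPM, 0.718).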

How the results depend on the processing

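Counts of genes past the threshold that moved by over 1.5 times are given by setting; the cause was not tested beyond the fewer mice of the single-diet fits. For the joint test (2 genes) DESeq2 and limma on log2(RPKM + 1) gave 4 each, and either diet alone and the myelin covariate gave 0. For Pfc against Str (0 genes) limma-voom with the mouse as a random effect, DESeq2 and the choroid plexus covariate gave 2 each, log2(RPKM + 1) 3, and library totals without TMM factors and the fit without WT mice 241 and 317 gave 1 each. For Pfc against Hip (1 gene) limma-voom, log2(RPKM + 1), either diet alone and the myelin covariate gave 0, and DESeq2 gave 2. For Str against Hip (0 genes) limma-voom and DESeq2 gave 2, log2(RPKM + 1) 5, and totals without TMM factors, a mean of at least 1 CPM, region by diet left out, the choroid plexus covariate and the fit without mice 241 and 317 gave 1 each. For KO against WT, DESeq2 gave 222 in the Pfc and 37 in the Hip, RIN as a covariate 198 and 41, the normal diet alone 16, 5 and 2 in Pfc, Str and Hip, the lacking diet alone 23, 16 and 8, the myelin covariate 8 in the Hip, and the fit without mice 241 and 317 gave 42 in the Pfc. The covariates of markers and the omission of mice 241 and 317 were chosen after seeing the data. Leaving out each mouse gave 0 to 3 genes in the joint test, 0 to 2 for Pfc against Str, 1 to 2 for Pfc against Hip, 0 to 2 for Str against Hip and 0 for the diet interaction, with moved counts in the joint test without mouse 242, 390 or 452, for Pfc against Str without 241, 267 or 339, for Pfc against Hip without 267 and for Str against Hip without 241, 267, 268, 273, 317 or 339. It gave 48 to 308, 27 to 33 and 17 to 30 for KO against WT in Pfc, Str and Hip. Without the replicate block that pairs the regions of a mouse the interaction counts were 3, 0, 1 and 0, with Ccr6 added to the joint test and no other call changed. None of 2483 values of 71 named genes, each in its leading comparison, changed sign under an alternative; 2456 kept their side of the threshold, 22 passed newly and 5, all of Fndc1, no longer passed.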

Other observations

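Enpp4, of the same family as Enpp5 and its neighbour on chromosome 17 (44096307 to 44105809), was named after its values were seen. It passed the test of KO against WT in all 3 regions, with log2 fold changes of -0.31 (SE 0.0731, edgeR adjusted p = 0.0369) in the Pfc, -0.41 (SE 0.078, adjusted p = 0.0093) in the Str and -0.32 (SE 0.0612, adjusted p = 0.0171) in the Hip. Its KO effects in Pfc and Str differed by 0.10 (-0.07 to 0.27) and the joint adjusted p was 0.745, while that of Enpp5 was 0.0114.

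In WT mice 241 and 317 Fndc1 was the highest of the WT libraries in the Str (14.8 and 14.5 CPM), whereas in the Pfc (2.17 and 1.81 CPM) and the Hip (6.27 and 5.92 CPM) it lay inside the range of the other WT mice. No explanation was tested.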
